A study of Mus musculus with 7 samples.

Results

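The genes described here are 8 members of the complement system, C1qa, C1qb, C1qc, C3, C4b, C3ar1, C5ar1 and Serping1, taken by symbol from the 19257 genes of a bulk RNA-Seq table of mouse brain tumors. All 8 were in the table and all 8 passed the filter on low values, a mean of at least 10 normalized counts over the libraries, which 14782 genes passed. A normalized count is the number of reads on a gene divided by a size factor of its library.

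The tumors were made by in utero electroporation of progenitor cells along the lateral ventricles, and were collected at endpoint under a fluorescence microscope, 1 library per tumor. In the 3xCR group (3 libraries, replicates 2, 3 and 4) a CRISPR-Cas9 construct targeted tumor suppressor genes. In the GPC6 group (4 libraries, replicates 1 to 4) the same construct was joined by a piggyBac transposon that overexpressed the glypican GPC6. Cells of both groups could carry a piggyBac GFP reporter. The mice were of CD-1 and C57BL/6 backgrounds and of both sexes, and the age at endpoint of each animal is not given in the sources used here. No sort of cells is described, so that a library can hold tumor and host cells. No tumor-free brain was included, so every value is a comparison between tumors. The labels give the tissue as brain and the cell type as neural.

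Complement is a chain of proteases and opsonins. C1q, built from A, B and C chains, recognizes a target and starts the classical pathway, in which C4 and C2 are cleaved to form the convertase of C3. Fragments of C3 tag the target and, as anaphylatoxins, C3a and C5a signal through the receptors C3aR and C5aR1, while the C1 inhibitor, encoded by Serping1, blocks the proteases that C1q carries. In the brain C1q is made mainly by microglia, C4 and C3 also by astrocytes, and the system is known for tagging synapses for removal.

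The 3 chains of C1q lie side by side on chromosome 4 and had nearly the same profile over the libraries, whereas C3 had another, so the bases before the start of C1qb, C1qc and C3 are shown. They are the 250 bases 5′ of the RefSeq start in build GRCm38.p6, on the minus strand, at chr4:136886201-136886450, chr4:136892915-136893164 and chr17:57228137-57228386. Capitals mark a match to ACTTCC, the core of sites bound by ETS factors, in the C1q genes, and to TTGCNNAA, a C/EBP motif, in C3.
C1qb: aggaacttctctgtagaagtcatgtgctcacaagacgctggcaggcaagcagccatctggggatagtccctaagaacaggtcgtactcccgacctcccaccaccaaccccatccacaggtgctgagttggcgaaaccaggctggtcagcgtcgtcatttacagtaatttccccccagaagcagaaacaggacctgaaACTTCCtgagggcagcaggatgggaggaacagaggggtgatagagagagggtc
C1qc: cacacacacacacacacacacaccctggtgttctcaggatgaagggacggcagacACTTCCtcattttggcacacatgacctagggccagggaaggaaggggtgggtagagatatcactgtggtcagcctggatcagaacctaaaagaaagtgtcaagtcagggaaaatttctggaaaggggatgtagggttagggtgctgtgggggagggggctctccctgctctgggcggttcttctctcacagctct
C3: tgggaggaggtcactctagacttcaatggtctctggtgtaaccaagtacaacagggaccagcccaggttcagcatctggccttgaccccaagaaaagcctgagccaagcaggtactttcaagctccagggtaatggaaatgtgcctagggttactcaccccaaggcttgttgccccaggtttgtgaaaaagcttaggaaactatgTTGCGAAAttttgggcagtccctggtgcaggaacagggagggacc
The first base of the match lay 53 bases before the start in C1qb, 195 in C1qc and 45 in C3. The RefSeq table held 5 of the 8 members, without C1qa, C4b and Serping1, and C5ar1 also had ACTTCC, at 72 and 190 bases. In the GENCODE annotation C1qc (to 136893065), C5ar1 (to 16259540) and, by a few bases, C3ar1 (to 122856161) reach into these windows. Both ACTTCC matches of C5ar1 lie inside its GENCODE gene and not before its start. The distances in C1qc and C5ar1 therefore hold for the RefSeq start only. On either strand ACTTCC was found in 19.7% of 32851 promoter windows of this length and TTGCNNAA in 9.56%. A STAT motif (TTCNNNGAA, in 7.02% of windows) and an interferon response motif (GAAA, any 2 bases, then GAAA, in 2.98%) matched none of the 5. The matches did not overlap each other, the motifs were picked with the sequences in view, and a match is only a description of the letters.

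The libraries held 7197692 to 18879762 reads on genes (median 10566182), and 3 reads were worth 1.64 to 4.64 normalized counts. Gpc6 had 217, 226 and 126 normalized counts in the 3xCR libraries and 675, 263, 3434 and 5084 in the GPC6 libraries. The library labelled GPC6 replicate 2 was thus close to the 3xCR libraries for the gene that defines its group, and the log2 difference of 2.85 did not pass the test (limma, Benjamini-Hochberg adjusted p = 0.730 over all genes tested). Ribosomal precursor RNA (Rn45s) took 2.52% to 2.79% of the reads in 3xCR and 0.914% to 1.39% in GPC6, and its part in the results below was not tested.

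Of the 8 complement genes, 7 had a lower mean log2 value in GPC6 than in 3xCR tumors, where 51.7% of all genes tested did, and the median log2 difference was -0.85 against -0.02 over all genes. No complement gene passed an adjusted p of 0.05, as no gene did (0% of 14782). At an unadjusted p under 0.05 in limma, 3 of the 8 were lower in GPC6 (C1qa, C1qc and Serping1) against 1.92% of all genes, and 0 were higher against 2.74%. The groups did not overlap for C1qa and C1qc, with every GPC6 library below every 3xCR library, as for 3.52% of all genes. In count models on the recovered reads, 5 of 8 (C1qa, C1qb, C1qc, C3 and Serping1) were lower at an unadjusted p under 0.05, against 3.66% of genes in DESeq2 and 2.95% in edgeR. The C1q chains had nearly the same profile, so these counts are not counts of independent genes. The library with the highest level of 6 of the 8 genes was 3xCR replicate 4. Without it, 0 of 8 were lower in GPC6 at an unadjusted limma p under 0.05, against 0.440% of all genes. Without GPC6 replicates 1 and 2 together, 0 of 8 were lower at this limit, against 2.69%. This count of lower genes was 1 without 3xCR replicate 3, GPC6 replicate 1 or GPC6 replicate 2 (C1qa each time, against 1.41%, 1.80% and 3.20% of all genes). It was 3 without GPC6 replicate 3 (1.60%) or GPC6 replicate 4 (2.67%), and 5 without 3xCR replicate 2 (3.40%).

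**Figure D1:**
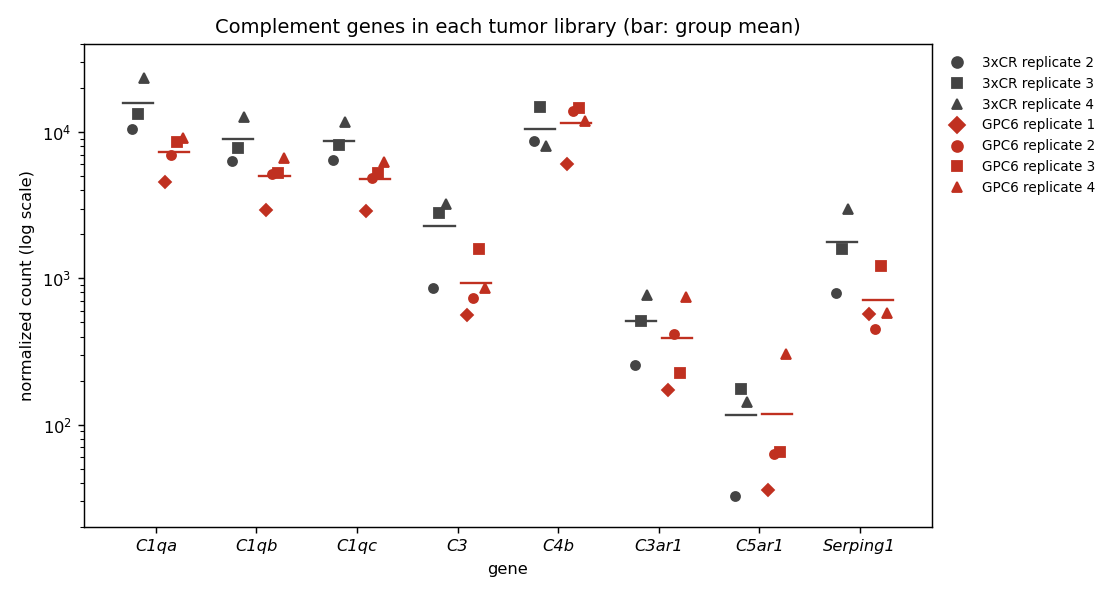
Normalized counts (log axis) of the 8 complement genes in each library, 3xCR in grey and GPC6 in red, with 1 symbol per replicate number and a bar at the mean of each group. For C1qa and C1qc all GPC6 points lie below all 3xCR points, for C4b, C3ar1 and C5ar1 the groups are interleaved, and the grey triangle, 3xCR replicate 4, is the highest point of 6 genes.

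C1qa (chr4:136895917-136898803, build mm10, minus strand) encodes the A chain and had 10569, 13292 and 23328 normalized counts in 3xCR (replicates 2, 3 and 4, in this order throughout) and 4563, 7016, 8593 and 9151 in GPC6 (replicates 1 to 4). The groups did not overlap, with 3xCR replicate 4 far above the rest and GPC6 replicate 1 lowest. The mean was 15730 ± 6719 (SD, n = 3) in 3xCR and 7331 ± 2055 (SD, n = 4) in GPC6, 2.15 times as high in 3xCR. On the log2 scale the difference was -1.07 ± 0.38 (SE), with an unadjusted p of 0.0226 and an adjusted p of 0.730 in limma.

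C1qb (chr4:136880129-136886187, minus strand), the B chain, had 6342, 7817 and 12692 normalized counts in 3xCR and 2946, 5139, 5273 and 6666 in GPC6. Here GPC6 replicate 4 was just above 3xCR replicate 2, so that the groups touched. C1qc (chr4:136889804-136893065, minus strand), the C chain, had 6403, 8149 and 11638 against 2895, 4879, 5232 and 6228, with no overlap. The log2 difference was -0.84 ± 0.36 (SE) for C1qb, with an unadjusted limma p of 0.0511. For C1qc it was -0.87 ± 0.34 (SE), with an unadjusted limma p of 0.0338, and both genes had an adjusted p of 0.730. The C1q chains together took from 0.0935% of the reads in GPC6 replicate 1 to 0.415% in 3xCR replicate 4. C1qa was the 32nd most abundant gene in that 3xCR library and the 335th in that GPC6 library.

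The chains moved together from tumor to tumor. The log2 ratio of C1qb to C1qc, which does not depend on the size factor, stayed within 0.18 over all 7 libraries, while each gene alone varied 4.31-fold and 4.02-fold. It differed by 0.04 between the groups (two-sided exact permutation test, p = 0.571, where the smallest possible p is 0.0571). The ratio of C1qa to C1qc was 0.72, 0.71 and 1.00 in 3xCR and 0.66, 0.52, 0.72 and 0.56 in GPC6, highest in 3xCR replicate 4. Its group difference of -0.20 did not pass (exact permutation p = 0.114, adjusted 0.400 over the 7 ratios compared). After centring each gene on its own mean, the root mean square log2 difference over the 7 libraries was 0.06 between C1qb and C1qc, the smallest among the 8 genes, and 0.15 between C1qa and C1qb. The genes most like C1qb by this measure were Rpl41 (0.07), Ncf1 (0.07) and Ctss (0.08), against a median of 0.70 over all genes compared. Those most like C1qc were Rpl13a, Serf2 and Ctss (0.08 to 0.09), and those most like C1qa were Rpl41, Myl9 and Blvrb (0.11 to 0.12).

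Of the opsonin genes, C3 had a lower mean in GPC6 and C4b did not. C3 (chr17:57203970-57228136, minus strand), the protein on which all pathways converge, had 863, 2793 and 3203 normalized counts in 3xCR and 558, 736, 1588 and 858 in GPC6. 3xCR replicate 2 lay among the GPC6 libraries and the other two 3xCR libraries lay above all of them. The means were 2287 ± 1250 (SD, n = 3) and 935 ± 452 (SD, n = 4). The log2 difference was -1.19 ± 0.53 (SE), with an unadjusted limma p of 0.0539. Without 3xCR replicate 2 it was -1.79, and without 3xCR replicate 4 it was -0.84.

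C4b (chr17:34728380-34743882, minus strand), the precursor of the other opsonin, was the exception to the direction. It had 8695, 14798 and 7974 normalized counts in 3xCR and 6025, 13894, 14546 and 11964 in GPC6. The highest value was in 3xCR replicate 3 and the lowest in GPC6 replicate 1, and the groups were interleaved. The means were 10489 ± 3749 (SD, n = 3) and 11607 ± 3880 (SD, n = 4), and the log2 difference was 0.12 ± 0.40 (SE), with an adjusted limma p of 0.936. Its sign turned when 3xCR replicate 4 (-0.05) or GPC6 replicate 3 (-0.01) was left out. C4a, a near-identical copy on the same chromosome, had 962, 1680 and 977 against 788, 1739, 1811 and 1597, and was the gene most like C4b (root mean square difference 0.09, against a median of 0.63). Reads of the copies could have been split in counting, so neither value is certain.

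C4b was also set against C1qb within each library. The log2 ratio of C4b to C1qb was 0.46, 0.92 and -0.67 in 3xCR and 1.03, 1.43, 1.46 and 0.84 in GPC6. All but one of the GPC6 values lay above all 3xCR values, and the exception, GPC6 replicate 4, lay below 3xCR replicate 3. The difference of 0.96 had an exact permutation p of 0.114 (adjusted 0.400). For C3, Serping1, C3ar1 and C5ar1 over C1qb the differences were -0.36, -0.41, 0.34 and 0.65, with exact permutation p from 0.343 to 0.514 (adjusted 0.571).

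Serping1 (chr2:84765387-84775444, minus strand), which encodes the inhibitor of C1r and C1s, had the largest log2 difference of the 8 in size. It had 794, 1578 and 2970 normalized counts in 3xCR and 573, 453, 1216 and 577 in GPC6. In all but GPC6 replicate 3 the GPC6 libraries were below every 3xCR library. The means were 1780 ± 1102 (SD, n = 3) and 705 ± 346 (SD, n = 4). The difference was -1.24 ± 0.50 (SE), with an unadjusted p of 0.0369 and an adjusted p of 0.730 in limma. It ranged from -1.73 to -0.77 when each library was left out in turn, and -0.77 was the value without 3xCR replicate 4. Its profile was closest to that of C3 among the 8 genes (root mean square difference 0.30), and furthest from that of C5ar1 (1.19). The most alike genes outside the 8 were Gpx8 (0.22), Samsn1 (0.31) and Cebpd (0.33), and for C3 they were Aim1, Slfn5 and Rnf19b (0.29 to 0.31), against a median of 0.99 for each.

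The anaphylatoxin receptors were the least abundant of the 8 genes. C3ar1 (chr6:122847138-122856161, minus strand), the receptor for C3a, had 256, 513 and 769 normalized counts in 3xCR and 172, 415, 226 and 748 in GPC6. The groups overlapped over nearly their whole range. The log2 difference was -0.49 ± 0.57 (SE), with an adjusted limma p of 0.812. C5ar1 (chr7:16246743-16259540, minus strand), the receptor for C5a, had 32.3, 174 and 142 normalized counts in 3xCR and 35.5, 63.2, 64.8 and 306 in GPC6, from 23 to 297 reads. The highest value, in GPC6 replicate 4, was 9.45 times the lowest, in 3xCR replicate 2. The means were 116 ± 74.3 (SD, n = 3) and 117 ± 126 (SD, n = 4), and the log2 difference of -0.18 ± 0.84 (SE) changed sign with the test (0.01 in edgeR, 0.02 in DESeq2). The genes most like C3ar1 were Ecm1 (0.15), Adgrg6 and P4hb (0.20 each), and those most like C5ar1 were B430306N03Rik, Ifrd2 and Capn6 (0.38 to 0.43), whose likeness is weaker than for the C1q genes.

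Per kilobase of the longest annotated transcript with a consensus coding sequence, the order in the 3xCR tumors was C1qa (15125 ± 6461 normalized counts per kilobase), C1qb (8227 ± 3055), C1qc (7257 ± 2216), C4b (1950 ± 697), Serping1 (1007 ± 623), C3 (445 ± 243), C3ar1 (119 ± 59.6) and C5ar1 (45.7 ± 29.3), with SD over 3 libraries. In the GPC6 tumors the order was the same, with C1qa at 7049 ± 1976, C1qb at 4601 ± 1413, C1qc at 3997 ± 1162, C4b at 2158 ± 721, Serping1 at 399 ± 195, C3 at 182 ± 88.1, C3ar1 at 90.6 ± 60.5 and C5ar1 at 46.2 ± 49.7 (SD, n = 4). Between neighbours in this order, the difference was less than the larger SD for C1qb and C1qc in both groups, for Serping1 and C3 in 3xCR, and for C3ar1 and C5ar1 in GPC6.

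Among the other genes of the pathway, 47 were listed, 42 were in the table and 30 passed the filter. Of these 30, 20 had a lower and 10 a higher mean log2 value in GPC6, where 51.7% of all genes tested were lower. Their median was -0.30, against -0.02 over all genes, and 0 passed an adjusted p of 0.05 in limma. The only one at an unadjusted p under 0.05 was C2, the protease of the classical convertase. Over all genes 1.92% were lower and 2.74% higher at this limit, so 1 of 30 is near the share of all genes. C2 had 735, 963 and 1372 normalized counts in 3xCR and 280, 346, 888 and 319 in GPC6, a difference of -1.28 ± 0.43 (SE) with an unadjusted limma p of 0.0183 and an adjusted p of 0.730. 1 GPC6 library, replicate 3, lay within the 3xCR range.

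By role, all 5 tested genes of the initiation step had a lower mean log2 value in GPC6, where 51.7% of all genes tested did. Among them C1s1, a protease of C1, was at -0.91 ± 0.86 (SE), Masp1, a protease of the lectin pathway, at -0.37 ± 0.75, and C1ra, the most abundant, at -0.62 ± 0.58. Of the 4 genes of the convertases and the alternative pathway 3 were lower, with Cfb, factor B, at -1.07 ± 0.70 and C4a at 0.28 ± 0.36. All 5 further receptors were lower in the mean, against the same 51.7% of all genes. Itgax, a subunit of complement receptor 4, had 706, 691 and 667 normalized counts in 3xCR and 117, 592, 556 and 562 in GPC6 (-0.84 ± 0.56). Its groups did not overlap, as for 3.52% of all genes. Itgb2, the partner chain of Itgax and the most abundant of the receptors, was at -0.52 ± 0.60, and Itgam, the alpha chain of complement receptor 3, at -0.15 ± 0.55.

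The regulators were mixed, with 6 lower and 8 higher of 14, where 51.7% of all genes were lower. Clu, clusterin, an inhibitor of the terminal complex, was the most abundant, with 6568, 7086 and 2390 normalized counts in 3xCR and 21713, 3793, 10270 and 5394 in GPC6 (0.77 ± 0.65). 3xCR replicate 4 was lowest and GPC6 replicate 1 highest, and the groups overlapped. Cd59a, another inhibitor of the terminal complex, was at -1.12 ± 0.72, and Sez6, a neuronal protein with complement control domains, at 1.96 ± 1.10, the lowest and highest of the group. Neither passed the test (unadjusted limma p of 0.158 and 0.113). Of the terminal pathway only C7 (0.80 ± 1.04) and C8g (-0.13 ± 0.48) could be tested, near the filter, at means of 5.52 to 15.4 normalized counts per group, while Hc, the gene of C5, C6, C8b and C9 did not pass it. Hc had at most 13.4 normalized counts. Mbl1, Fcnb, Cfd, C8a and C4bp were not analysed here.

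**Figure D2:**
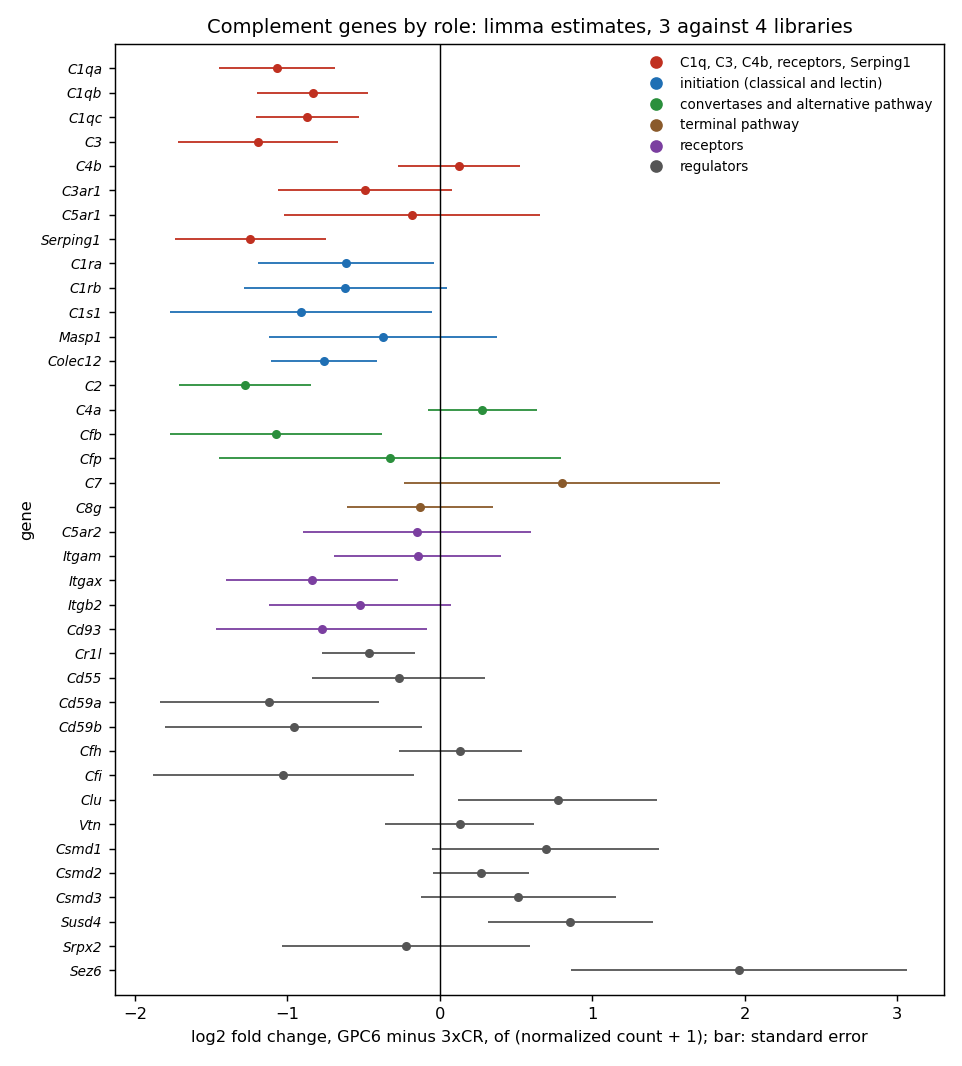
Log2 difference between GPC6 and 3xCR tumors (limma on log2(normalized count + 1), 4 against 3 libraries) of the 8 complement genes and the 30 other complement genes tested, coloured by role, with bars of 1 standard error. All initiation genes and receptors lie left of 0, C4b and C4a lie right of it, and the regulators lie on both sides.

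Like the C1q chains, most genes of a microglia list had a lower mean log2 value in GPC6, but they did not match in every library. All 15 genes of a microglia list were measured, and 14 had a lower mean log2 value in GPC6, where 51.7% of all genes tested did. At an unadjusted limma p under 0.05, 7 were lower, against 1.92% of all genes, and the median was -0.78. The log2 differences smallest in size were those of Sall1 (0.01), Csf1r (-0.18), Gpr34 (-0.27) and Cx3cr1 (-0.29). Tmem119, a defining marker, had 1378, 1607 and 2456 normalized counts in 3xCR and 753, 792, 1186 and 683 in GPC6, whereas P2ry12, another, had 425, 341 and 287 against 311, 249, 293 and 207, with overlap. Both were present in all libraries, while Fcrls, also of the list, was at 0 in GPC6 replicate 1. Ctss, the most abundant gene of the list, had means of 20563 and 11827. The summed normalized count of the list was 30732 to 53512 in 3xCR and 17018 to 29993 in GPC6. As a score, log2(normalized count + 1) was centred on the mean of each gene and averaged over the list, which gave 0.33, 0.44 and 0.76 in 3xCR and -1.03, -0.05, -0.03 and -0.43 in GPC6. The groups did not overlap, and the difference of -0.90 had an exact permutation p of 0.0571, the smallest possible, and 0.557 after adjustment over the 13 cell type lists scored. Within GPC6 the C1q chains were highest in replicate 4, whose score of -0.43 lay below those of replicates 2 and 3. Among the 3xCR libraries P2ry12 was lowest in replicate 4, where the C1q chains were highest. In bulk tissue, fewer cells of a type and less RNA per cell cannot be told apart.

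The complement genes were also set against the microglia list. For this, the mean log2(normalized count + 1) of the list genes, without centring, was subtracted in each library. The difference between GPC6 and 3xCR was then -0.17 for C1qa, 0.06 for C1qb and 0.03 for C1qc, each within the SD of the groups (0.21 to 0.36). It was -0.29 for C3 and -0.35 for Serping1, and 0.41 for C3ar1 and 0.71 for C5ar1, each also within the SD of either group. For C4b it was 1.02, with all 4 GPC6 libraries (4.29 to 4.68) above all 3xCR libraries (2.90 to 4.11). Before the subtraction C4b differed by 0.12. The list itself differed by -0.90 between the groups, so a gene at equal levels in both rises by that amount in this measure. The share of all genes whose groups part in this way was not counted. In limma with the score as a covariate C4b differed by 0.99 ± 0.57 (SE) and no gene of the 8 passed (adjusted p of 1.00 for each). The score and the group were themselves related, so the standard error of C1qa rose from 0.38 to 0.51.

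**Figure D3:**
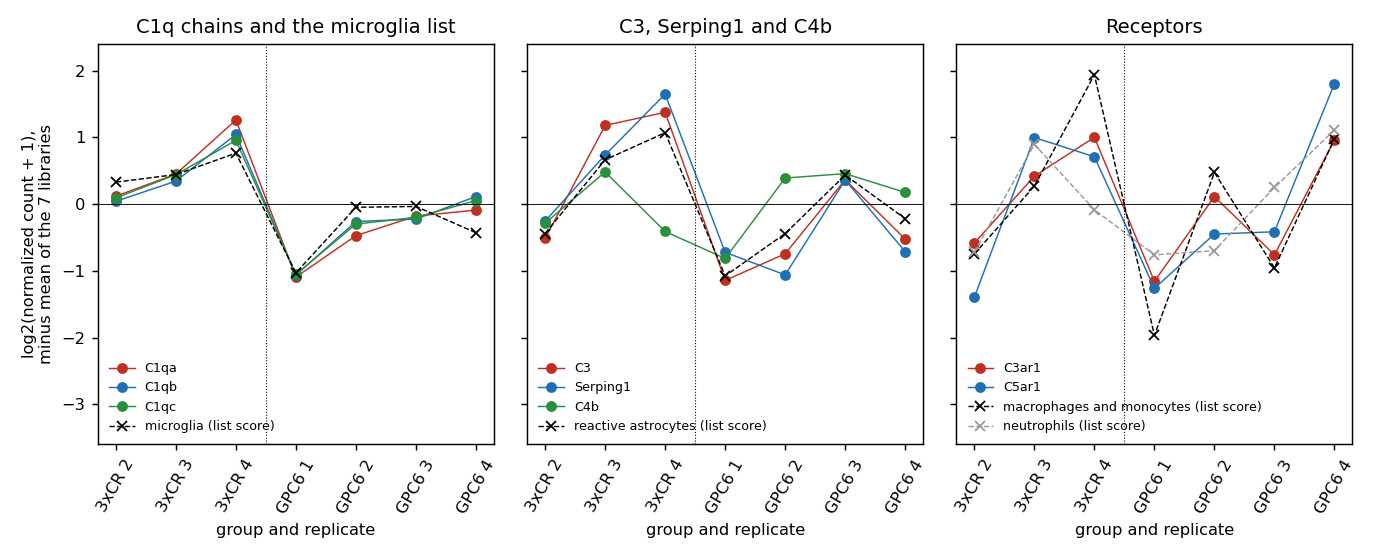
Log2(normalized count + 1) in each library minus the mean of the 7 libraries, for the C1q chains, for C3, Serping1 and C4b, and for the receptors, with the score of a cell type list on the same scale as a dashed line (crosses). The C1q chains lie nearly on top of each other and near the microglia line, C4b parts from C3 and Serping1 in 3xCR replicate 4 and GPC6 replicates 2 and 4, and the receptors are highest in 3xCR replicate 4 or GPC6 replicate 4.

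Markers of other cells also differed between libraries. The list of macrophages and monocytes had scores of -0.75, 0.27 and 1.94 in 3xCR and -1.97, 0.48, -0.95 and 0.98 in GPC6 (difference -0.85, exact permutation p = 0.457). 3xCR replicate 4 and GPC6 replicate 4 were highest, as for C3ar1, and the summed level was 3427 to 36060 normalized counts in 3xCR and 716 to 11621 in GPC6. Of the neutrophil list only 3 of 10 genes could be tested, and S100a8 was at 3.84 to 34.0 normalized counts. The reactive astrocyte list had 16 of 16 genes with a lower mean log2 value in GPC6, where 51.7% of all genes tested were lower. Its score difference was -0.76 (exact permutation p = 0.171), with summed levels of 22088 to 47460 in 3xCR and 12517 to 29021 normalized counts in GPC6. Astrocyte markers were at 0.15 (exact permutation p = 0.800). 3xCR replicate 4 also stood highest on the mural cell and fibroblast list (2.35, the others from -1.28 to 1.06) and on the T cell list (1.97, the others from -1.11 to 0.05). The part of these cells in the complement values was not tested.

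The complement differences held their direction to different degrees under other settings. Leaving out each library in turn, C1qa ranged from -1.31 to -0.74, C1qc from -1.07 to -0.64, C1qb from -1.05 to -0.55 and C3ar1 from -0.92 to -0.13 on the log2 scale. With weights for libraries by their fit, limma gave adjusted p of 0.0472 for C1qa (-0.71 ± 0.19) and 0.0372 for C1qc (-0.67 ± 0.16), 2 of the 8, where 3.92% of all genes were called lower. C5ar1 was at 0.59 without GPC6 replicates 1 and 2 and at -0.93 without 3xCR replicate 2.

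**Figure D4:**
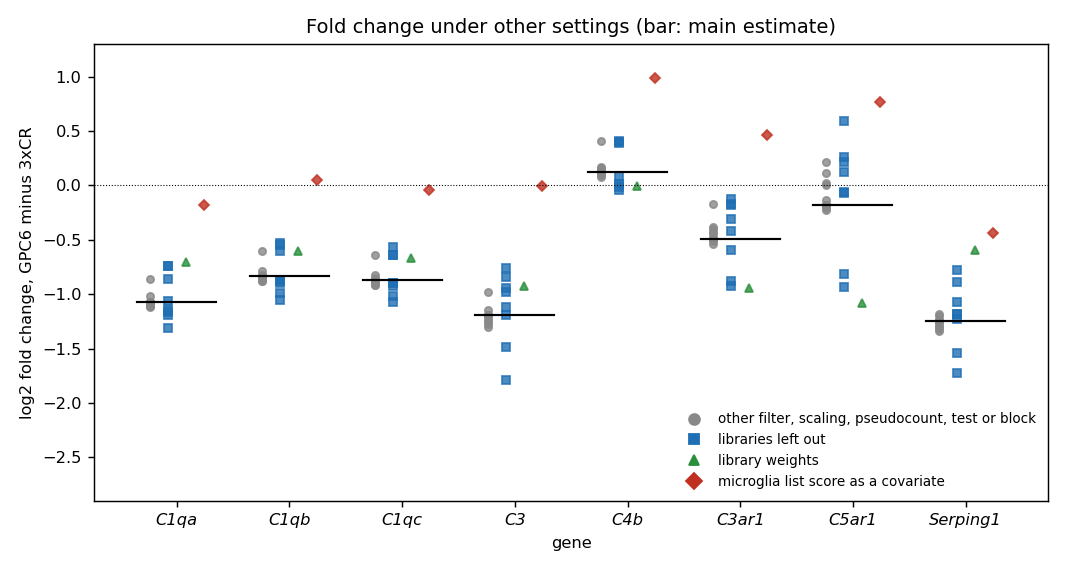
Log2 difference between GPC6 and 3xCR tumors of each complement gene, with a bar at the reported value and points for other filters, scalings, pseudocounts, tests or the replicate block (grey), for libraries left out (blue), for library weights (green) and for the microglia score as a covariate (red). C1qa, C1qc, C3 and Serping1 stay below 0 throughout, though C1qc (-0.04) and C3 (-0.01) nearly reach it with the microglia score. C5ar1 lies on both sides of 0.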

How the data were processed

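RNA was taken from endpoint tumor tissue, and poly(A) libraries were made with a stranded kit. Per the labels and the methods of the study, the authors aligned reads to mm10 with STAR 2.5.0a, counted them per gene and normalized with DESeq2 1.20.0. How they counted a read that matches more than 1 gene is not given in the sources used here. The deposited values are this normalized count, a signal on a linear scale: reads divided by 1 size factor per library, with no correction for gene length. All 7 columns were used (0 were left unmapped). Rows with a date in place of a gene symbol (25 entries, 0.254% to 0.361% of reads) were left out. Whole reads were recovered from the steps of the values: 100% lay no further than 0.01 read from an integer.

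Groups and replicate numbers came from the sample labels. Groups were compared on log2(normalized count + 1) with limma 3.58.1 (R 4.3.3) and a variance trend, two-sided, over genes with a mean of at least 10 and with Benjamini-Hochberg adjustment over all of them. Since the values are normalized, count tests (DESeq2 1.42.0 Wald, edgeR 4.0.16 quasi-likelihood, limma voom) of those reads were alternatives, beside pseudocounts of 0.5 and 5, a filter at 50 or none, TMM, upper-quartile or total-count scaling, no variance trend, library weights, a replicate block, the microglia score as a covariate and libraries left out. The counts of complement genes without each library were added after the data were seen. Ratios and list scores were compared by two-sided exact permutation tests over the 35 divisions of the libraries. Nothing in the labels ties a library to a culture, litter or day, so p-values measure the spread between these libraries. Fold changes on the log2(value + 1) scale understate those of low genes. The limit of 3 reads covers counting error only. Only the limma fit was tested on simulated data, with planted differences and the same dispersion for every gene. The other steps were not tested in this way.

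All 8 complement genes are named. From each role group of the pathway the text names the most abundant gene, those of largest and smallest log2 difference and any at an unadjusted p under 0.05, and for each of the 8 the 3 most alike genes with a mean of at least 50. Hc, Cfi, Colec12, Fcrls, Tmem119, P2ry12, Sall1, Csf1r, Gpr34, Cx3cr1, S100a8 and Rn45s were named after their values were seen. The full set of genes targeted in the model is not reported here. The genes and lists were chosen with earlier results of these data known. Coordinates are from GENCODE M21 (GRCm38), matched for 96.0% of symbols. Promoters are from RefSeq (GRCm38.p6).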

Additional observations from a re-analysis of the deposited data

Results flagged for a closer look

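In groups of 4 libraries, 58 quantities were examined for a library far from the others, and 4 were singled out, where chance gives about 1 in 20, or 2.9. Only the GPC6 group has enough libraries for this. The quantities come from the same 4 libraries and many vary together, so 2.9 is no firm yardstick. GPC6 replicate 1 had 788 normalized counts of C4a (the other three 1597 to 1811) and 117 of Itgax (the others 556 to 592). Its score on the list of proliferating cells was -3.18 (the others 0.42 to 1.15). In GPC6 replicate 4 the log2 ratio of C5ar1 to C1qb was -4.44, against -6.33 to -6.32 in the others.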

How the results depend on the processing

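Over all genes, 0 were called at an adjusted p under 0.05 in limma and 689 had an unadjusted p under 0.05. DESeq2 called 10 (1793 unadjusted), library weights 1962 (5105 unadjusted), edgeR 0 (991 unadjusted) and limma voom 0 (499 unadjusted). The microglia covariate left 173 at an unadjusted p under 0.05, and leaving out each library in turn gave 121 (without 3xCR replicate 4) to 1399 (without GPC6 replicate 2). Library weights called 2 of the 8 complement genes (C1qa and C1qc) and 3 of the 30 others tested (Cfi, Colec12 and Sez6), against 1962 of all 14782 genes. In limma without weights Sez6 was at 1.96, Cfi at -1.03 and Colec12 at -0.76. Under every other setting none of the 8 was called. The number of the 8 whose groups do not overlap was 2, against 3.52% of all genes. With a library left out it ranged from 2 to 5, while the share of all genes ranged from 4.28% to 10.61%. It was 3 without GPC6 replicate 4 (7.76% of all genes), 4 without GPC6 replicate 3 (4.77%) and 5 without 3xCR replicate 2 (10.61%). The number lower at an unadjusted p under 0.05, 3 of 8, ranged from 0 to 5, and was 0 without both GPC6 replicates 1 and 2. The cause of these changes was not tested.

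C1qa, C1qc, C3 and Serping1 had a negative log2 difference in all alternatives. With the microglia covariate it was smaller than its standard error for each. It was then -0.18 ± 0.51 (SE) for C1qa, -0.04 ± 0.45 for C1qc, -0.01 ± 0.75 for C3 and -0.44 ± 0.79 for Serping1. C1qb turned to 0.0497 and C3ar1 to 0.47 with the microglia covariate. C4b turned to -0.0103 with library weights and ranged from -0.0461 to 0.41 with a library left out. C5ar1 turned to 0.0064 in edgeR, 0.0242 in DESeq2, 0.11 in voom, 0.77 with the covariate and 0.59 without both GPC6 replicates 1 and 2, and ranged from -0.93 to 0.26 with a library left out. The ratio of C1qb to C1qc ranged from -0.0032 to 0.0892. Of the list scores, endothelial cells ranged from -0.0315 to 0.51, oligodendrocyte precursors from -0.67 to 0.24, neutrophils from -0.43 to 0.38, astrocytes from -0.51 to 0.58 and proliferating cells from -1.11 to 0.33. Without both GPC6 replicates 1 and 2, neutrophils were at 0.65 and proliferating cells at 0.42.

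Same-numbered libraries of the 2 groups did not pair (correlations of their deviations -0.19, 0.12 and 0.30). A replicate block leaves GPC6 replicate 1 without a partner. It called 0 genes, left 678 at an unadjusted p under 0.05 and moved C5ar1 to 0.21, with no other change of direction among the 8. Scaling moved the median of all genes by at most 0.05. With 3 against 4 libraries no exact test can pass 0.05. C5ar1 had as few as 23 reads in a library.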

Other observations

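The neuron list had all 13 genes with a higher mean log2 value in GPC6, as had 7142 of the 14782 genes tested. At an unadjusted p under 0.05 in limma, 4 were higher, against 2.74% of all genes. Its scores were -0.13, -0.77 and -2.28 in 3xCR and 2.46, -0.89, 1.57 and 0.04 in GPC6 (difference 1.85, two-sided exact permutation p = 0.171). GPC6 replicate 1, which had the lowest level of the C1q chains, had the highest neuron score. The choroid plexus list was highest in the same library (2.56, the others from -2.06 to 1.81). The oligodendrocyte list was lowest in GPC6 replicate 4 (-2.02, the others from -0.73 to 1.03).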
